A study of Mus musculus with 12 samples.

Results

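Inguinal white adipose tissue (IWAT), the fat pad under the skin of the groin, was compared between KI-HFD and WT-NC mice. The comparison holds the 6 IWAT libraries of the 12 in the series, 3 in each group, chosen by tissue and title. The labels number the libraries of a group without saying that each came from a separate mouse, so p-values measure the spread between these libraries. KI-HFD mice carried the genotype written Adv-CGRPalpha+/- and were titled HFD, for high-fat diet. WT-NC mice were labelled WT and titled NC, for normal chow. Both groups were of strain C57BL/6. Genotype and diet changed together, no inguinal library of the other pairings was analysed here, and the effects of the allele and of the diet cannot be told apart. How the allele was made, which promoter drives it and the age and sex of the mice are not given in the sources used here. Polyadenylated RNA was sequenced from one end without keeping the strand. The question, after the series title, is how CGRP-expressing sensory neurons bear on fat metabolism and diet-induced obesity.

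White adipocytes take up glucose and fatty acids under insulin, store them as triglyceride and release them again when noradrenaline from sympathetic nerves acts on beta-adrenergic receptors. The tissue is also fed by capillaries lined with endothelium and wrapped by pericytes and smooth muscle cells, and held together by matrix from fibroblasts. Sensory neurons reach the depot with CGRP, the peptide encoded by Calca, which widens vessels through a receptor built from Calcrl and Ramp1.

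The libraries held 22.5, 21.1 and 21.3 M counts in KI-HFD, against 23.5, 22.0 and 21.9 M counts in WT-NC, and 22178 to 24549 genes had at least 1 count. Levels are in CPM, a gene's share of its library's TMM-scaled total, and a fold change is KI-HFD over WT-NC on the log2 scale, followed by an approximate standard error (SE) worked back from the test. Where 3 values are given for a group they belong to its libraries 1, 2 and 3 in that order. Adipocyte markers were present: all 18 white adipocyte genes were tested, with a summed level of 83176, 94558 and 58249 CPM in KI-HFD and 63719, 76161 and 51959 CPM in WT-NC, a median log2 fold change of 0.36 and 14 genes above 0. All 18 were also tested in the brown fat libraries, so their presence does not check which depot was taken. KI-HFD library 3 stood apart in lymphocyte genes. The T and natural killer list summed to 13.5, 20.1 and 689 CPM in KI-HFD libraries 1 to 3, against 122, 33.0 and 73.5 CPM in WT-NC, and the B cell receptor gene Cd79a was at 0.483, 1.39 and 127 CPM in KI-HFD, against 2.03, 1.23 and 1.77 CPM in WT-NC. Skeletal muscle genes summed to 206, 109 and 222 CPM in KI-HFD and 166, 540.0 and 1212 CPM in WT-NC, most in WT-NC library 3. The numbers in the deposited file names form a lower series, with 2 libraries per group, and an upper series, with 1 per group, and the labels do not say what these numbers mark.

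**Figure D1:**
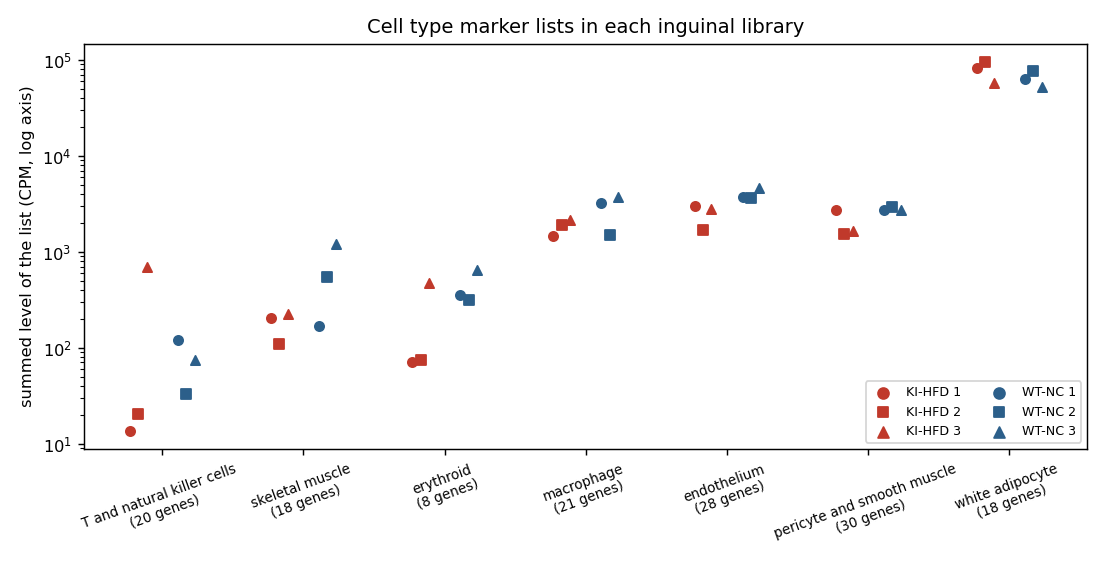
Summed level of marker lists in each library (CPM, log axis), with KI-HFD libraries left of WT-NC libraries in each pair and 1 symbol per replicate number. KI-HFD 3 stands above the other 5 libraries in T and natural killer genes, WT-NC 3 is the highest in skeletal muscle genes, and the adipocyte sums of the groups overlap.

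Across the transcriptome no gene passed the test over all genes. edgeR's quasi-likelihood test called 0 of 15881 genes (0.0%) at an adjusted p under 0.05, and its lowest adjusted p was 0.0589. Before adjustment 1730 genes had a p under 0.05. Without KI-HFD library 3, described above, edgeR called 10 genes, 9 higher and 1 lower in KI-HFD. DESeq2 on the same counts called 349 genes, 101 higher and 248 lower in KI-HFD. Among the 15881 genes these were 99 higher (0.623%) and 242 lower (1.52%). The authors' deposited table held 335 genes under an adjusted p of 0.05, 96 higher and 239 lower, all of them among the DESeq2 calls. Without regard to any test, all 3 KI-HFD libraries lay above all 3 WT-NC libraries for 1313 genes (8.27%) and below them for 1319 genes (8.31%). These shares are the background for the counts of separated members below, where a gene is called separated when the libraries of the groups do not overlap. The median log2 fold change of all genes was 0.04, with 8739 genes above 0 and 7142 below. The 15 genes with the lowest p in each direction, among separated genes of at least 2 CPM with a settled name, had edgeR adjusted p values of 0.0589 to 0.204, given with each gene below. The other genes named had values of 0.189 to 0.979, so their differences did not pass the test.

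**Figure D2:**
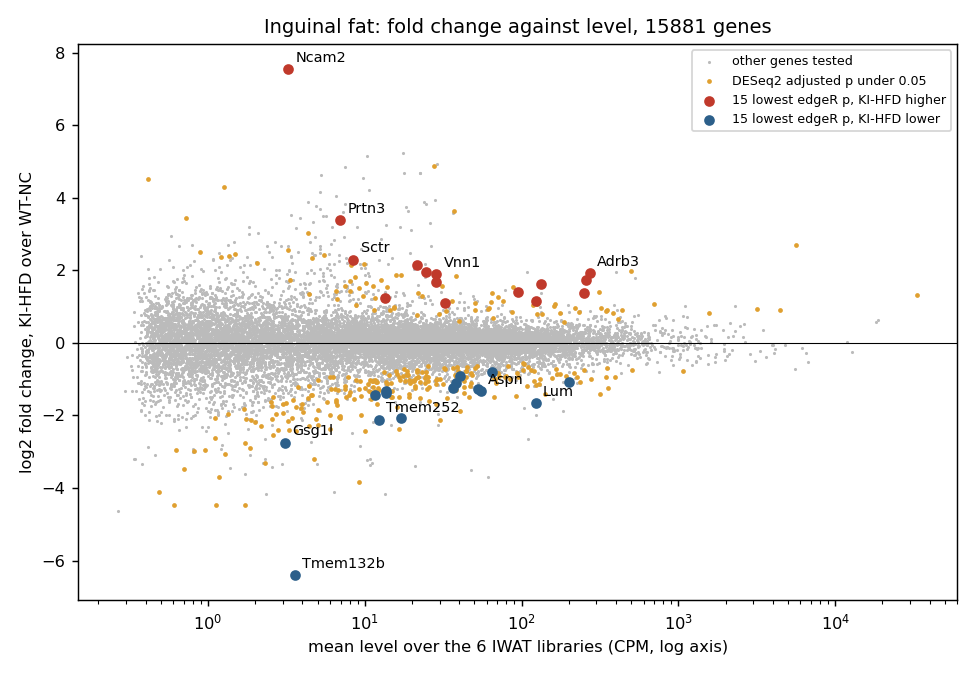
Each point is 1 of 15881 genes, by its mean level in the 6 libraries (CPM, log axis) and its log2 fold change of KI-HFD over WT-NC. Ncam2 at the top and Tmem132b at the bottom lie farthest from 0 among the coloured genes, which have the lowest edgeR p in each direction.

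The gene with the lowest p was Vnn1 (chromosome 10, 23894688 to 23905343, GRCm38), a pantetheinase that splits pantetheine, a breakdown product of coenzyme A, into pantothenate and cysteamine. It was at 45.0, 50.7 and 39.5 CPM in KI-HFD, against 10.99, 12.6 and 12.9 CPM in WT-NC (log2 fold change 1.89, SE 0.16, edgeR adjusted p = 0.0589). The groups lay far apart compared with the spread inside either, which choosing the gene by its lowest p favours. Its neighbour Vnn3, another vanin gene 24845 bases away, was at 33.6, 64.0 and 38.2 CPM in KI-HFD, against 24.4, 20.5 and 18.8 CPM in WT-NC (log2 fold change 1.09, SE 0.26). The authors' deposited table gave Vnn1 a log2 fold change of 1.74 and Aspn, described below, -1.24. For other genes the authors' values lay much nearer 0, with 3.20 for Ncam2, -3.03 for Tmem132b, 1.23 for Agt and 1.38 for Cfd, where edgeR gave 7.54, -6.39, 3.65 and 2.70. Size alone did not order this gap: Thrsp, with an edgeR change of 1.80 close to that of Vnn1 but an SE of 0.50, was at 0.93. Of 16 tested genes for coenzyme A synthesis and turnover, 4 were separated upward, these being the vanins, the thioesterase gene Acot4 and the carrier gene Slc25a16, and 0 downward, with a list median of 0.20.

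Genes by which adipocytes sense and answer noradrenaline had no common direction as a list. Adrb3, the beta3-adrenergic receptor of adipocytes, was at 428, 530.5 and 332 CPM in KI-HFD, against 99.7, 143 and 97.0 CPM in WT-NC (log2 fold change 1.93, SE 0.24, edgeR adjusted p = 0.106). Every KI-HFD library held more than every WT-NC library, as the choice of leading genes required. Of the 29 adrenergic and cAMP genes 2 were separated upward and 4 downward, with a median of 0.02. Of all genes 8.27% and 8.31% were separated in these directions, with a median of 0.04. The phosphodiesterase gene Pde3b, through which insulin lowers cAMP, was at 359, 545 and 342 CPM in KI-HFD, against 257, 317 and 209 CPM in WT-NC (log2 fold change 0.67, SE 0.24). Hcar1, the lactate receptor that restrains lipolysis, was at 123, 169 and 118 CPM in KI-HFD, against 38.4, 58.5 and 59.1 CPM in WT-NC (log2 fold change 1.39, SE 0.22, edgeR adjusted p = 0.189). Pnpla2, the lipase that takes the first fatty acid off triglyceride, was at 4169.6, 5238 and 3023 CPM in KI-HFD, against 2033, 2732 and 1777 CPM in WT-NC (log2 fold change 0.93, SE 0.30). These genes of opposed effect on lipolysis were thus separated in the same direction. Hilpda, an inhibitor of that lipase, ran the other way at 24.98, 29.0 and 36.7 CPM in KI-HFD, against 59.6, 47.7 and 87.8 CPM in WT-NC (log2 fold change -1.10, SE 0.25). In the lipolysis list as a whole 3 of 12 genes were separated upward and 1 downward.

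Fatty acid synthesis genes were mostly higher in KI-HFD, with members on both sides. Of the 22 genes 7 were separated upward and 3 downward, DESeq2 called 3 higher and 0 lower, and the list median was 0.33. Acaca, the acetyl-CoA carboxylase that commits carbon to fatty acids, was at 62.7, 159 and 58.2 CPM in KI-HFD, against 33.5, 42.7 and 32.6 CPM in WT-NC (log2 fold change 1.36, SE 0.39). Its mitochondrial relative Acacb was at 68.5, 155 and 74.7 CPM in KI-HFD, against 37.7, 41.8 and 44.4 CPM in WT-NC (log2 fold change 1.27, SE 0.31). KI-HFD library 2 was the highest for both. Thrsp, a lipogenic regulator, was at 507, 1460.0 and 507 CPM in KI-HFD, against 159, 359 and 191 CPM in WT-NC (log2 fold change 1.80, SE 0.50), again with library 2 highest. Scd1, the desaturase that makes oleate, was the most counted gene in every KI-HFD library and in WT-NC libraries 2 and 3, and was at 59468, 56755 and 27396 CPM in KI-HFD, against 12817, 24108 and 20178 CPM in WT-NC (log2 fold change 1.33, SE 0.50). Fasn, the fatty acid synthase, overlapped between groups at 2145, 3804 and 1682 CPM in KI-HFD, against 1191, 1880.4 and 2124 CPM in WT-NC, as did the citrate lyase gene Acly at 442, 497 and 321 CPM in KI-HFD, against 271, 309 and 524 CPM in WT-NC. Me1, the malic enzyme that supplies NADPH, was lower at 588, 514 and 378 CPM in KI-HFD, against 728, 679.9 and 826 CPM in WT-NC (log2 fold change -0.59, SE 0.20). The list median was 0.55 within the lower number series and -0.11 in the single pair of the upper series, so that pair did not show the direction. The white adipocyte markers, with a median of 0.36, moved with this list and with the insulin and branched-chain amino acid lists below, and their part in these results was not tested. Scd1, Fasn, Acly and Me1 were chosen after their values were seen.

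Mlxipl encodes ChREBP, the glucose-sensing transcription factor of lipogenesis, and was at 84.3, 109 and 74.7 CPM in KI-HFD, against 58.0, 70.8 and 49.2 CPM in WT-NC (log2 fold change 0.59, SE 0.19). It was the only lipogenesis gene among the 19 with a RefSeq promoter whose 250 bases before a start held the sterol regulatory element TCACNCCAC on either strand, a motif found in 1.23% of 27025 genes with promoters. The E-box CACGTG was found in 3 of these genes and in 6.86% of all, and the PPAR direct repeat, AGGTCA repeated after 1 base, in 0 of them and in 0.0407% of all. Among the 11327 tested genes with a promoter, the like set for this list, the sterol element was in 1.25%, the E-box in 9.60% and the repeat in 0.0618%. Every motif was searched on both strands. The window of Mlxipl, before a start inside the gene, is shown because it carries the sterol element, in capitals, 136 bases before the start (RefSeq, GRCm38.p6, plus strand, chr5:135106641-135106890).
Mlxipl: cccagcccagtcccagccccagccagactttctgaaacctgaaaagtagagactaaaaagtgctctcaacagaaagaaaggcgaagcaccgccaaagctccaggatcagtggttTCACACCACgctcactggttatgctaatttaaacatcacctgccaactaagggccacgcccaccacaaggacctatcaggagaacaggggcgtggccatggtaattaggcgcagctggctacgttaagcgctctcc

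Insulin signalling genes were higher in KI-HFD or overlapped. Of 24 genes 9 were separated upward and 0 downward, with a median of 0.30, and DESeq2 called 2 higher. Irs1, the adaptor below the insulin receptor, was at 18.1, 20.2 and 23.0 CPM in KI-HFD, against 9.07, 13.9 and 8.06 CPM in WT-NC (log2 fold change 0.98, SE 0.25). Tbc1d4, which releases glucose transporter vesicles when Akt acts on it, was at 69.0, 80.8 and 94.0 CPM in KI-HFD, against 48.7, 57.6 and 44.9 CPM in WT-NC (log2 fold change 0.69, SE 0.16). The receptor gene Insr was at 105, 113 and 87.3 CPM in KI-HFD, against 73.9, 82.7 and 67.5 CPM in WT-NC (log2 fold change 0.45, SE 0.14). Slc2a4, the insulin-responsive glucose transporter GLUT4, was at 311, 481 and 272 CPM in KI-HFD, against 148, 263 and 165 CPM in WT-NC, with WT-NC library 2 just below KI-HFD library 3 (log2 fold change 0.88, SE 0.29). The list median was 0.30 within the lower series and 0.22 in the upper pair.

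Genes that break down branched-chain amino acids, a carbon source for fat in adipocytes, were nearly all higher in KI-HFD. Of its 26 genes 25 had a fold change above 0, 7 were separated upward and 1 downward, and the median was 0.45. Bcat2, the mitochondrial aminotransferase that starts the pathway, was at 245, 414 and 206 CPM in KI-HFD, against 132, 182 and 129.97 CPM in WT-NC (log2 fold change 0.96, SE 0.28). Ivd, the dehydrogenase of the leucine branch, was at 379, 620.4 and 381 CPM in KI-HFD, against 211, 303 and 215 CPM in WT-NC (log2 fold change 0.92, SE 0.25). KI-HFD library 2 was the highest for both. The single gene below 0 was Bcat1, the cytosolic aminotransferase, at 38.9, 21.9 and 25.2 CPM in KI-HFD, against 80.2, 61.9 and 53.8 CPM in WT-NC (log2 fold change -1.19, SE 0.25). Its groups did not overlap, so the paralogues for the same step lay in opposite directions. The list median was 0.53 in the lower series and 0.24 in the upper pair.

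Genes of the mitochondrion were separated in few cases. The 8 tested transcripts encoded by mitochondrial DNA all had a fold change above 0, with a median of 0.36, and none was separated. All 18 citric acid cycle genes had a fold change above 0, with a median of 0.25 and 3 separated upward. Suclg2, the GTP-specific subunit of succinyl-CoA ligase, was at 50.2, 76.7 and 50.1 CPM in KI-HFD, against 33.1, 37.4 and 37.6 CPM in WT-NC (log2 fold change 0.71, SE 0.19). Of 23 fatty acid oxidation genes 3 were separated upward, among them the peroxisomal enzyme gene Ehhadh at 121, 99.0 and 61.2 CPM in KI-HFD, against 54.0, 51.5 and 56.9 CPM in WT-NC (log2 fold change 0.79, SE 0.23). The 72 nuclear oxidative phosphorylation genes held 0 separated upward and 0 downward, with a median of 0.05 beside 0.04 for all genes. In the thermogenic list 1 of 22 genes was separated upward and 3 downward, beside 8.27% and 8.31% of all genes. Ucp1, the uncoupling protein of heat-making adipocytes, was at 5.07, 10.2 and 3.90 CPM in KI-HFD, against 3.46, 2.91 and 29.8 CPM in WT-NC, where WT-NC library 3 alone set the higher group mean. Without that library its log2 fold change was 1.01, against -0.92 with it. Cidea, another brown and beige marker, was at 9.37, 58.3 and 21.5 CPM in KI-HFD, against 14.6, 28.2 and 20.7 CPM in WT-NC, and Ppargc1a, the coactivator of mitochondrial genes, at 6.62, 37.1 and 17.7 CPM in KI-HFD, against 7.41, 11.2 and 7.04 CPM in WT-NC, both with KI-HFD library 2 highest and overlapping groups. Elovl3, a fatty acid elongase induced by cold in brown fat, was lower at 1.401, 0.310 and 0.649 CPM in KI-HFD, against 4.15, 4.04 and 7.88 CPM in WT-NC (log2 fold change -2.76, SE 0.58). Creatine and calcium cycling genes, which include muscle genes, were all 10 below 0, among them the phosphatase gene Alpl at 4.78, 8.005 and 7.49 CPM in KI-HFD, against 11.6, 17.3 and 18.6 CPM in WT-NC (log2 fold change -1.22, SE 0.29).

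Among genes that adipocytes secrete or use against oxidants, Cfd, the gene for adipsin of the alternative complement pathway, was at 6095, 16482 and 6575 CPM in KI-HFD, against 1081, 2396 and 1018 CPM in WT-NC (log2 fold change 2.70, SE 0.55). C2, a complement protease of the classical pathway, was at 46.0, 53.0 and 30.5 CPM in KI-HFD, against 11.7, 13.7 and 14.9 CPM in WT-NC (log2 fold change 1.68, SE 0.23, edgeR adjusted p = 0.136). The complement list held 4 of 19 genes separated upward, the others being Clu and C7, and 0 downward. Its median was -0.12, and it changed sign to 0.40 in the lower series, 0.27 without WT-NC library 3 and 0.08 without KI-HFD library 1. Gpx3, the secreted glutathione peroxidase, was at 551, 1231 and 605 CPM in KI-HFD, against 180.1, 252 and 173 CPM in WT-NC (log2 fold change 1.98, SE 0.34), highest in KI-HFD library 2. Gsta4, which removes lipid aldehydes, was at 16.7, 49.9 and 28.2 CPM in KI-HFD, against 9.93, 16.4 and 9.96 CPM in WT-NC (log2 fold change 1.38, SE 0.41). Agt, the gene for angiotensinogen, spread widely in KI-HFD at 141, 47.8 and 16.7 CPM and stayed at 4.19, 3.54 and 8.68 CPM in WT-NC (log2 fold change 3.65, SE 0.78). Prtn3, known as a neutrophil protease gene, lies 7679 bases before Cfd on the same strand of chromosome 10 with Elane between them. It was at 8.36, 22.8 and 6.88 CPM in KI-HFD, against 0.814, 1.86 and 0.974 CPM in WT-NC (log2 fold change 3.38, SE 0.58, edgeR adjusted p = 0.204), and its counts were 0.105 to 0.138% of those of Cfd in KI-HFD and 0.0753 to 0.0957% in WT-NC. The start of Prtn3 also overlaps Plppr3, a gene of the minus strand described below. Counting without strand cannot tell Plppr3 from Prtn3 over that overlap, and the source of the other Prtn3 counts was not tested. Elane, with few counts, was at 0.725, 1.29 and 0.693 CPM in KI-HFD, against 0.163, 0.590 and 0.310 CPM in WT-NC.

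Genes known to mark fat expansion on a high-fat diet were not higher in KI-HFD. In C57BL/6 mice that diet is known to raise leptin and the imprinted gene Mest in white fat. Lep was at 6593, 2914 and 3084 CPM in KI-HFD, against 7116, 7563 and 6091 CPM in WT-NC (log2 fold change -0.72, SE 0.38), and Mest, chosen after its values were seen, at 2369, 573 and 783 CPM in KI-HFD, against 2325, 1642 and 1616 CPM in WT-NC (log2 fold change -0.58, SE 0.51). For both genes KI-HFD libraries 2 and 3 were below all WT-NC libraries, and KI-HFD library 1 was not. This direction is opposite to the one known for the diet in wild-type mice. The KI-HFD mice were not wild type, and whether the genotype bears on this direction was not tested. Whether each library carries the right group label was not tested either, and with exchanged labels every fold change given here would have the opposite sign. Of 19 genes of the expansion list 0 were separated upward and 2 downward, with a median of -0.72. The shares of all genes were 8.27% and 8.31%. Adipoq, the adiponectin gene, overlapped at 4288, 4455 and 2880.4 CPM in KI-HFD, against 3570.0, 3125 and 2435 CPM in WT-NC, as did Pparg, the master regulator of adipocytes, at 319, 493 and 317 CPM in KI-HFD, against 322, 351 and 312 CPM in WT-NC. The lipid droplet coat gene Plin2 was lower at 949, 790.3 and 623 CPM in KI-HFD, against 1384, 1099.7 and 1591 CPM in WT-NC (log2 fold change -0.79, SE 0.23).

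**Figure D3:**
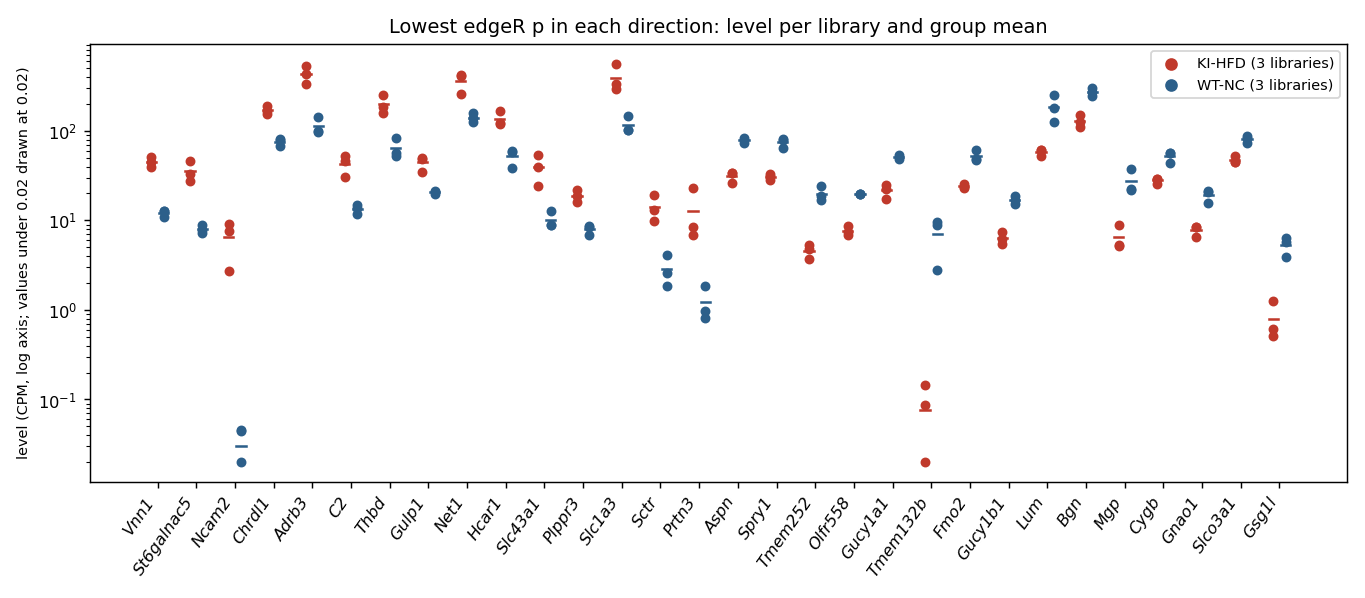
Level of the 15 genes with the lowest edgeR p in each direction, in every library (points; CPM, log axis) and as the group mean (bar), KI-HFD left of WT-NC. The groups do not overlap, which the choice of these genes required.

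Blood vessel genes were lower in KI-HFD, both those of the endothelial lining and those of the wall. Of 28 endothelial genes all 28 had a fold change below 0, 24 were separated downward and the median was -0.66. DESeq2 called 4 of them. Sox7, an endothelial transcription factor, was at 38.8, 38.2 and 39.3 CPM in KI-HFD, against 60.1, 59.4 and 68.1 CPM in WT-NC (log2 fold change -0.69, SE 0.11). Aplnr, the apelin receptor, was at 83.0, 49.0 and 97.2 CPM in KI-HFD, against 179, 148 and 286 CPM in WT-NC (log2 fold change -1.42, SE 0.32). Emcn, a mucin of capillaries and veins, was at 34.6, 26.4 and 25.9 CPM in KI-HFD, against 47.1, 49.0 and 53.0 CPM in WT-NC (log2 fold change -0.78, SE 0.15). Pecam1, the junction protein used to stain vessels, was at 272, 112 and 251 CPM in KI-HFD, against 334, 307 and 446 CPM in WT-NC (log2 fold change -0.77, SE 0.33), lowest in KI-HFD library 2. Kdr, the main VEGF receptor, overlapped at 257, 123 and 226 CPM in KI-HFD, against 205, 223 and 364 CPM in WT-NC, and so did its ligand Vegfa at 191, 262 and 200.1 CPM in KI-HFD, against 156, 199 and 219.6 CPM in WT-NC, both chosen after their values were seen. In whole tissue fewer cells of a type and less RNA per cell cannot be told apart. The list median was -0.68 in the lower series, -0.68 in the upper pair and -0.71 without KI-HFD library 3.

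Pericyte and smooth muscle genes were lower in KI-HFD as well. All 30 of 30 tested genes had a fold change below 0, 20 were separated downward, DESeq2 called 12, and the median was -0.99. Notch3, the Notch receptor of mural cells, was at 25.9, 16.9 and 27.8 CPM in KI-HFD, against 51.2, 58.4 and 76.4 CPM in WT-NC (log2 fold change -1.39, SE 0.23), and its target Heyl at 23.5, 18.1 and 26.7 CPM in KI-HFD, against 31.4, 39.8 and 46.7 CPM in WT-NC (log2 fold change -0.79, SE 0.21). Ndufa4l2, a pericyte-enriched subunit gene, was at 8.41, 5.32 and 6.10 CPM in KI-HFD, against 15.7, 15.2 and 19.4 CPM in WT-NC (log2 fold change -1.34, SE 0.24). Rgs5, a pericyte marker, was at 195, 115 and 149 CPM in KI-HFD, against 317, 339 and 307 CPM in WT-NC (log2 fold change -1.07, SE 0.20), and Myh11, the smooth muscle myosin, at 72.9, 38.9 and 57.0 CPM in KI-HFD, against 82.2, 126 and 127 CPM in WT-NC (log2 fold change -0.99, SE 0.26). Acta2, smooth muscle actin, overlapped at 427, 108 and 149.6 CPM in KI-HFD, against 315, 375 and 324 CPM in WT-NC, with KI-HFD library 1 the highest of all. The median was -0.91 in the lower series, -0.88 in the upper pair and -0.97 without WT-NC library 3, the one richest in skeletal muscle genes. Rgs5, Myh11 and Myl9 below were chosen after their values were seen.

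Smooth muscle genes are known to be driven by serum response factor through the CArG box. In the 250 bases before a RefSeq start, that box was found in 1 of 22 listed genes with a promoter, Myl9, and in 1.62% of 27025 genes. Among the 11327 tested genes with a promoter the share was 1.47%. Myl9, a myosin light chain of smooth muscle, was at 62.7, 31.0 and 42.0 CPM in KI-HFD, against 85.8, 90.9 and 93.5 CPM in WT-NC (log2 fold change -0.99, SE 0.24). Its window is shown for the box, in capitals, 161 bases before the start (RefSeq, GRCm38.p6, plus strand, chr2:156775214-156775463).
Myl9: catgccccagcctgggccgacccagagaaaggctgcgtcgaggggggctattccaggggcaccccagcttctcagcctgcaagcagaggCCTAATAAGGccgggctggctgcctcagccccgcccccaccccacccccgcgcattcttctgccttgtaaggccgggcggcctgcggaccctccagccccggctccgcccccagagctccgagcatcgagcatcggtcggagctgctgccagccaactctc

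The receptor by which vessel walls sense nitric oxide was lower as a pair. Gucy1a1 and Gucy1b1 encode the alpha and beta subunits of soluble guanylyl cyclase and lie 17738 bases apart on the minus strand of chromosome 3. Gucy1a1 was at 25.2, 17.5 and 22.2 CPM in KI-HFD, against 53.8, 48.9 and 51.1 CPM in WT-NC (log2 fold change -1.25, SE 0.16, edgeR adjusted p = 0.115). Gucy1b1 was at 7.39, 6.15 and 5.45 CPM in KI-HFD, against 15.4, 18.6 and 16.9 CPM in WT-NC (log2 fold change -1.42, SE 0.20, edgeR adjusted p = 0.182). Neither group overlapped the other for either subunit, as the choice of leading genes required. Mrvi1, a substrate of the cGMP kinase in smooth muscle, was at 9.42, 4.596 and 5.50 CPM in KI-HFD, against 16.2, 13.4 and 13.4 CPM in WT-NC (log2 fold change -1.14, SE 0.30). Pde1a, a phosphodiesterase gene that breaks down cGMP and cAMP, was higher at 61.4, 112 and 56.9 CPM in KI-HFD, against 37.3, 50.6 and 35.3 CPM in WT-NC (log2 fold change 0.90, SE 0.28). Of 15 genes of this pathway 2 were separated upward and 6 downward, with a median of -0.54. Olfr558, an odorant receptor gene known in mouse vessel smooth muscle, was at 7.39, 6.92 and 8.61 CPM in KI-HFD, against 19.6, 19.9 and 19.97 CPM in WT-NC (log2 fold change -1.37, SE 0.17, edgeR adjusted p = 0.115).

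**Figure D4:**
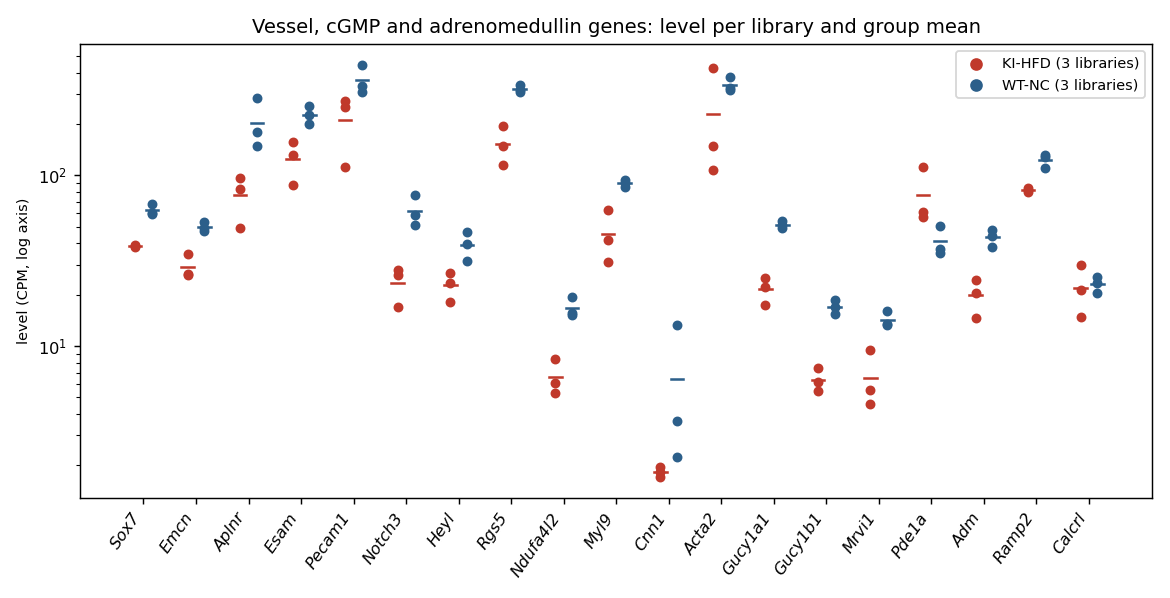
Level of endothelial, mural, cGMP and adrenomedullin genes in every library (points; CPM, log axis) with the group mean (bar), KI-HFD left of WT-NC. Most genes are lower in KI-HFD without overlap, Acta2 and Calcrl overlap, and Pde1a is higher.

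Calca, the gene named by the genotype, was near the detection limit, with 6, 20 and 14 counts in KI-HFD and 10, 25 and 19 counts in WT-NC (log2 fold change -0.30, SE 0.62, edgeR adjusted p = 0.885). The cell bodies of the neurons that express it lie outside fat, so these counts check no label. Of the CGRP receptor, Calcrl overlapped at 21.3, 14.9 and 29.9 CPM in KI-HFD, against 25.4, 20.4 and 23.5 CPM in WT-NC and Ramp1 at 3.29, 4.08 and 9.57 CPM in KI-HFD, against 4.92, 5.45 and 6.11 CPM in WT-NC. The partner gene Ramp3 was left untested, with 4, 3 and 30 counts in KI-HFD and 8, 3 and 6 counts in WT-NC. Calcb, the gene for CGRP-beta, had 1 count in all 6 libraries and Th, the enzyme that marks sympathetic nerves, had 2. Adm, the gene for adrenomedullin, a peptide of the same family that acts on vessels through Calcrl with Ramp2, was at 24.3, 14.7 and 20.5 CPM in KI-HFD, against 47.7, 38.0 and 44.4 CPM in WT-NC (log2 fold change -1.13, SE 0.21). Ramp2 was at 84.0, 82.5 and 80.5 CPM in KI-HFD, against 132, 128 and 110.4 CPM in WT-NC (log2 fold change -0.59, SE 0.12). Both were separated downward, and endothelium is a known source of Ramp2. Avil, the sensory neuron gene advillin, was at 1.88, 2.53 and 2.77 CPM in KI-HFD, against 0.163, 1.09 and 1.55 CPM in WT-NC (log2 fold change 1.36, SE 0.68).

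Ncam2, an adhesion gene known from olfactory neurons, was close to an on and off difference (chromosome 16, 81200697 to 81626828). It had 187, 149 and 63 counts in KI-HFD, against 0, 1 and 1 counts in WT-NC. The ratio of the summed counts, each divided by its library totals, was 207 (exact 95% interval 57.0 to 1719, counting error only), with an edgeR adjusted p of 0.0742. Tmem132b, a membrane protein gene, was its opposite, with 3, 0 and 2 counts in KI-HFD and 236, 61 and 200 counts in WT-NC. WT-NC was higher there by a ratio of 95.6 (40.7 to 296), with an edgeR adjusted p of 0.115. Nerve genes lay in both directions: of 20 neuron and neurotrophic genes, Ncam2 among them, 5 were separated upward and 4 downward, and of 16 Schwann cell genes 2 and 2. Ntrk2, the receptor for BDNF, was at 498, 582 and 428 CPM in KI-HFD, against 309, 369 and 280.4 CPM in WT-NC (log2 fold change 0.65, SE 0.18).

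Many matrix genes were lower in KI-HFD, among them small leucine-rich proteoglycans, which coat collagen fibrils and bind growth factors. Aspn, the gene for asporin (chromosome 13, 49544443 to 49567565), was at 33.8, 33.6 and 26.4 CPM in KI-HFD, against 82.6, 73.1 and 79.2 CPM in WT-NC (log2 fold change -1.32, SE 0.14, edgeR adjusted p = 0.0742). Lum, the gene for lumican, was at 52.4, 61.8 and 61.8 CPM in KI-HFD, against 178, 127 and 255 CPM in WT-NC (log2 fold change -1.67, SE 0.25, edgeR adjusted p = 0.189), and Bgn, for biglycan, at 125, 109.7 and 150.0 CPM in KI-HFD, against 272, 243 and 302 CPM in WT-NC (log2 fold change -1.09, SE 0.16, edgeR adjusted p = 0.189). The WT-NC libraries spread more for Lum than the KI-HFD libraries. The family was not uniform: Podn, for podocan, was higher at 86.3, 179 and 129 CPM in KI-HFD, against 29.4, 60.0 and 46.3 CPM in WT-NC (log2 fold change 1.54, SE 0.33), and Dcn, for decorin, overlapped at 749.7, 1126 and 668 CPM in KI-HFD, against 1094, 724 and 1139 CPM in WT-NC. Ecm2, which borders Aspn on chromosome 13, was lower at 12.4, 13.2 and 14.8 CPM in KI-HFD, against 23.8, 20.1 and 22.1 CPM in WT-NC, while Omd on its other side was at 2.95, 3.46 and 2.34 CPM in KI-HFD, against 2.16, 2.22 and 2.21 CPM in WT-NC. Ecm2, Omd and Dcn were chosen after their values were seen. The neighbour on one side thus shared the direction of Aspn, and the neighbour on the other did not. Of 10 genes 2 were separated upward and 4 downward, with a median of -0.47.

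Other matrix genes followed in part. Of 35 genes 0 were separated upward and 11 downward, with a median of -0.46, and of 25 collagen genes 0 and 3, with a median of -0.46. Among all genes 8.27% and 8.31% were separated in these directions. Postn, the gene for periostin, was at 277, 125 and 119 CPM in KI-HFD, against 474, 427 and 484 CPM in WT-NC (log2 fold change -1.41, SE 0.33). Sparcl1, a matricellular protein gene rich in vessel walls, was at 329, 228 and 250.2 CPM in KI-HFD, against 542, 475 and 541 CPM in WT-NC (log2 fold change -0.95, SE 0.18). Col8a1, a short-chain collagen of vessel walls, was at 12.5, 6.15 and 11.3 CPM in KI-HFD, against 30.6, 26.2 and 27.2 CPM in WT-NC (log2 fold change -1.49, SE 0.27), with KI-HFD library 2 the lowest. Col1a1, of the main fibrillar collagen, overlapped between the groups at 611, 501 and 427 CPM in KI-HFD, against 601, 812 and 848 CPM in WT-NC. Mgp, an inhibitor of calcification and of BMPs, was at 5.36, 5.16 and 9.003 CPM in KI-HFD, against 22.6, 21.7 and 37.7 CPM in WT-NC (log2 fold change -2.07, SE 0.32, edgeR adjusted p = 0.189). Mmp13, a collagenase gene, had 0, 0 and 6 counts in KI-HFD and 41, 34 and 74 counts in WT-NC. The collagen median was -0.15 in the lower series and -0.96 in the upper pair. The fibroblast and progenitor list had a median of 0.02, and Pdgfra, the receptor that marks those cells, overlapped at 29.6, 44.9 and 34.9 CPM in KI-HFD, against 33.7, 32.2 and 41.8 CPM in WT-NC.

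Antagonists of growth factors were among the leading genes in both directions. Spry1, which dampens ERK signalling below growth factor receptors, was at 32.9, 28.6 and 31.3 CPM in KI-HFD, against 81.5, 63.8 and 79.6 CPM in WT-NC (log2 fold change -1.28, SE 0.14, edgeR adjusted p = 0.0742). Chrdl1, an extracellular BMP antagonist, was at 168, 188 and 153 CPM in KI-HFD, against 68.1, 78.6 and 80.7 CPM in WT-NC (log2 fold change 1.16, SE 0.13, edgeR adjusted p = 0.0855). The values of each group lay close together for both genes, which their choice by low p favours. Id1, a direct target of BMP signalling, was higher at 102, 48.5 and 66.0 CPM in KI-HFD, against 36.2, 36.7 and 43.4 CPM in WT-NC (log2 fold change 0.89, SE 0.26). Fstl1, a secreted glycoprotein that binds BMPs, was lower at 265, 254 and 197 CPM in KI-HFD, against 480.4, 369.6 and 513 CPM in WT-NC (log2 fold change -0.93, SE 0.19). In the 39 BMP and TGF-beta genes 5 were separated upward and 5 downward, beside 8.27% and 8.31% of all genes.

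The remaining leading genes that were higher in KI-HFD belong to several functions. St6galnac5, a sialyltransferase that builds gangliosides, was at 32.8, 45.6 and 27.5 CPM in KI-HFD, against 7.32, 8.81 and 7.88 CPM in WT-NC (log2 fold change 2.14, SE 0.22, edgeR adjusted p = 0.0742). Thbd, for thrombomodulin, an anticoagulant receptor known on endothelium, was higher at 187, 254 and 159.6 CPM in KI-HFD, against 52.9, 56.8 and 84.3 CPM in WT-NC (log2 fold change 1.63, SE 0.24, edgeR adjusted p = 0.189), against the direction of the endothelial list. Slc1a3, a glutamate and aspartate transporter, was at 330.1, 560.0 and 293 CPM in KI-HFD, against 103, 147 and 103 CPM in WT-NC (log2 fold change 1.75, SE 0.28, edgeR adjusted p = 0.189), and Slc43a1, a transporter of large neutral amino acids, at 39.7, 53.7 and 24.5 CPM in KI-HFD, against 8.79, 12.8 and 8.86 CPM in WT-NC (log2 fold change 1.95, SE 0.31, edgeR adjusted p = 0.189). Sctr, the secretin receptor, was at 13.1, 19.3 and 9.74 CPM in KI-HFD, against 1.87, 4.09 and 2.61 CPM in WT-NC (log2 fold change 2.30, SE 0.39, edgeR adjusted p = 0.202). KI-HFD library 2 was the highest and library 3 the lowest of their group for each of these genes. Net1, a RhoA exchange factor, was at 418, 409 and 259.8 CPM in KI-HFD, against 125, 157 and 138 CPM in WT-NC, the engulfment adaptor gene Gulp1 at 50.4, 48.1 and 35.1 CPM in KI-HFD, against 19.9, 20.7 and 21.3 CPM in WT-NC, and Plppr3 at 18.9, 21.7 and 16.1 CPM in KI-HFD, against 6.88, 8.67 and 8.41 CPM in WT-NC. The edgeR adjusted p of Net1 was 0.189, that of Gulp1 0.189 and that of Plppr3 0.189. Plppr3 overlaps the start of Prtn3 on the other strand, so without strand the genes cannot be told apart there.

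Of the genes lower in KI-HFD and not yet described, Tmem252 was at 5.27, 3.67 and 4.85 CPM in KI-HFD, against 18.7, 16.8 and 24.2 CPM in WT-NC (log2 fold change -2.11, SE 0.24, edgeR adjusted p = 0.0855). Fmo2, a flavin monooxygenase gene, was at 23.0, 25.8 and 23.7 CPM in KI-HFD, against 61.3, 47.3 and 48.4 CPM in WT-NC (log2 fold change -1.12, SE 0.15, edgeR adjusted p = 0.115), and Cygb, a globin of fibroblasts and pericytes, at 29.0, 29.0 and 25.8 CPM in KI-HFD, against 56.4, 44.2 and 57.1 CPM in WT-NC (log2 fold change -0.91, SE 0.15, edgeR adjusted p = 0.189). Gnao1, a G protein subunit gene, was at 8.41, 6.56 and 8.35 CPM in KI-HFD, against 15.8, 20.7 and 21.4 CPM in WT-NC, the organic anion transporter gene Slco3a1 at 51.8, 44.6 and 45.3 CPM in KI-HFD, against 88.2, 73.6 and 82.9 CPM in WT-NC, and Gsg1l, an AMPA receptor partner, at 1.26, 0.516 and 0.606 CPM in KI-HFD, against 5.78, 3.90 and 6.42 CPM in WT-NC. The edgeR adjusted p of Gnao1, Slco3a1 and Gsg1l was 0.189, 0.189 and 0.189.

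Macrophage genes were mostly lower in KI-HFD, with a wide spread within WT-NC. Of 21 genes 20 had a fold change below 0 and 3 were separated downward, with a median of -0.63. Adgre1, the F4/80 antigen gene, was at 35.5, 35.4 and 35.4 CPM in KI-HFD, against 102, 38.8 and 156 CPM in WT-NC (log2 fold change -1.48, SE 0.43). The KI-HFD libraries agreed closely while WT-NC ranged widely. Of 15 genes of lipid-associated macrophages, which gather around dying adipocytes in obesity, 2 were separated downward, with a median of -0.98. The share of all genes separated downward was 8.31%. Lgals3, for galectin-3, was at 335, 139.6 and 152 CPM in KI-HFD, against 528, 333 and 628 CPM in WT-NC (log2 fold change -1.25, SE 0.39). Cxcl1, a neutrophil-attracting chemokine gene, was at 1.59, 0.878 and 1.26 CPM in KI-HFD, against 5.90, 3.00 and 5.40 CPM in WT-NC (log2 fold change -1.93, SE 0.40). WT-NC library 2 was the lowest of its group for both genes, and for Lgals3 the groups overlapped. Iigp1, an interferon-induced GTPase gene, was at 50.5, 45.8 and 50.2 CPM in KI-HFD, against 177, 65.6 and 165 CPM in WT-NC (log2 fold change -1.48, SE 0.34). The macrophage median was -0.28 in the lower series and -1.16 in the upper pair. All 20 cell division genes were below 0, 4 of them separated, with Cdk1, the mitotic kinase gene, at 7.25, 4.80 and 7.96 CPM in KI-HFD, against 18.2, 13.2 and 18.7 CPM in WT-NC (log2 fold change -1.32, SE 0.26).

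Lymphocyte lists rested on KI-HFD library 3. The T and natural killer median was 1.72 with it and -2.36 without it, the B and plasma cell median 4.15 and -0.96, and the class II antigen presentation median -0.17 and -1.04. Ptprc, the pan-leukocyte gene CD45, was at 27.9, 24.7 and 273 CPM in KI-HFD, against 81.2, 31.4 and 65.5 CPM in WT-NC, with a log2 fold change of 0.87 with and -1.17 without that library. The skeletal muscle median was -3.03, and -1.71 without WT-NC library 3. Their part in the other results was not tested, beyond the values given without these libraries.

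**Figure D5:**
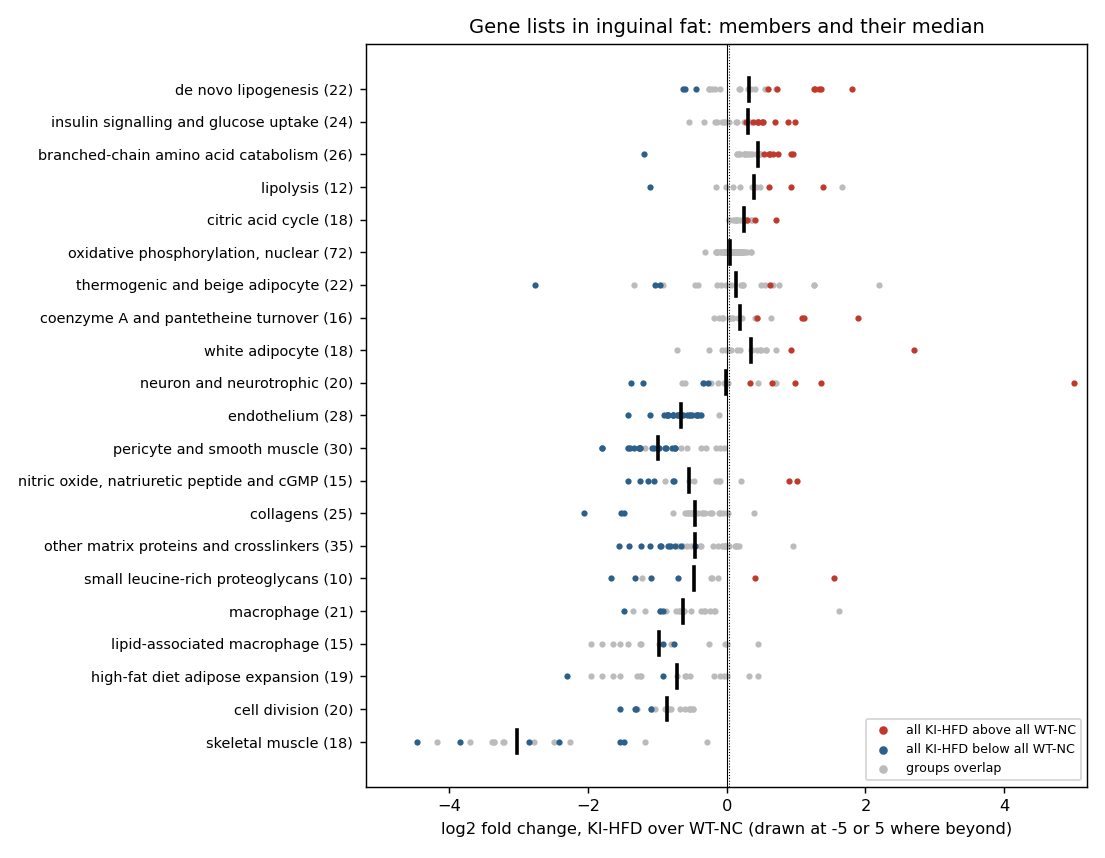
log2 fold change of KI-HFD over WT-NC for each tested member of the gene lists (points; the number tested is in brackets), with the list median (black bar), red where all KI-HFD libraries lie above all WT-NC libraries and blue where they lie below. The dotted line is the median of all genes, 0.04, and Ncam2 lies beyond the axis and is drawn at 5. The bars lie left of it for endothelium (-0.66), pericyte and smooth muscle (-0.99) and skeletal muscle (-3.03) and right of it for branched-chain amino acid catabolism (0.45).

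The same KI-HFD against WT-NC comparison in brown fat (BAT) shared no library with this one, though some file name numbers recur. The difference between the depots was tested with an interaction term over the 12 libraries. The edgeR test called 0 of 17395 genes, 831 had a p under 0.05 before adjustment, and DESeq2 called 25. BAT levels were TMM-scaled over the 12 libraries and IWAT levels over the 6 IWAT libraries alone. Levels are therefore on different scales and are not compared between the depots, while the differences tested come from 1 fit. Adrb3 averaged 531 ± 107 CPM in BAT KI-HFD and 537 ± 128 CPM in BAT WT-NC (SD, n = 3 each), where IWAT averaged 430.0 ± 99.4 CPM in KI-HFD and 113 ± 25.5 CPM in WT-NC, and its fold change in IWAT minus that in BAT was 1.94 (SE 0.38, edgeR adjusted p = 0.463). Ncam2 averaged 0.712 ± 0.255 CPM in BAT KI-HFD and 0.319 ± 0.242 CPM in BAT WT-NC, with a difference of 6.39 (SE 1.10, edgeR adjusted p = 0.463). Elovl3 averaged 422 ± 72.5 CPM in BAT KI-HFD and 141 ± 81.1 CPM in BAT WT-NC, with a difference of -4.34 (SE 0.73, edgeR adjusted p = 0.463). Adrb3, Ncam2 and Elovl3 were among the DESeq2 interaction calls. The pericyte and smooth muscle median was -0.99 in IWAT and -0.26 in BAT, the endothelial median -0.66 and -0.16, and the macrophage median -0.63 and -1.63. For the expansion list the median was -0.72 in IWAT and -2.97 in BAT. Gucy1a1 had a difference of -1.12 (SE 0.33, edgeR adjusted p = 0.891) and Aspn of -0.33 (SE 0.37, edgeR adjusted p = 1.00).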

How the data were processed

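Raw counts per gene were deposited for each library. The authors used FastQC, STAR, HTSeq and DESeq2 with GRCm38.p5, per the submitters' processing notes, and versions are not given in the sources used here. The authors' deposited table held a log2 fold change, its error as a score and p-values, and served for comparison. The library kit kept no strand, per the labels, so overlapping and antisense genes cannot be told apart. The counts were tested with edgeR 4.0.16 (R 4.3.3) on the 6 libraries: filterByExpr with a minimum count of 10, TMM scaling, the quasi-likelihood F test and Benjamini-Hochberg adjustment at 0.05. Each SE is the absolute log2 fold change divided by the square root of its F statistic, not an error estimated by the fit. Alternatives were DESeq2 1.42.0, limma 3.58.1 (voom), other scalings and filters, a replicate block, a batch term and leaving out each library. On simulated counts the edgeR step recovered 200 of 200 genes changed 4-fold at a dispersion of 0.02 and 194 of 200 at 0.1. It also called 6 unchanged genes each time. The simulation gave all genes the same dispersion and changed only well-counted genes. It therefore cannot tell which changes the test finds in these libraries, where Adrb3, 3.80-fold higher, had an edgeR adjusted p of 0.106. The text names the 15 genes with the lowest p in each direction with separated groups and a mean of at least 2 CPM, and up to 4 genes of each of 60 lists by p, a set list of CGRP, adrenergic, adipocyte and cell marker genes (such as Calcrl, Ucp1, Lep and Pecam1), and the genes said to be chosen after their values were seen. The members and lists were chosen with earlier results of these data known. A separated gene is one whose groups do not overlap. Gene positions are from GENCODE M21 and promoters from RefSeq. The GC content or length of genes was not adjusted for.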

Additional observations from a re-analysis of the deposited data

How the results depend on the processing

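The count of genes past the threshold, 0 in edgeR with TMM scaling, was also 0 with RLE size factors, with a mean of at least 1 CPM, in limma-voom, with the series of file name numbers as a batch term and in the lower series alone. It was 2 with library totals as the scale (1 higher, Vnn1, and 1 lower, Aspn), 45 with no filter on low counts (20 higher, 25 lower), 349 in DESeq2 (101 higher, 248 lower) and 1 with all 12 libraries in 1 fit (1 higher, Ncam2, adjusted p 0.0298). Leaving out each library in turn gave 0 to 10 calls (0 to 9 higher, 0 to 1 lower), and the 10, among them Ncam2, Vnn1, Adrb3 and Aspn, came without KI-HFD library 3. The replicate block gave 0 calls; same-numbered libraries deviated together with correlations of -0.12, 0.31 and 0.22, so the numbers were not taken as pairs. The difference between depots had 0 calls in edgeR and in limma-voom with a block for the file name number, and 25 in DESeq2. The cause of these differences was not tested. Of 4086 alternatives for 256 single genes, 3916 kept direction and side of the threshold, 147 passed it, 100 of them in DESeq2, and 23 changed sign, all in genes whose groups overlapped. With a library left out, Calca gave -0.83 to 0.039, Calcrl -0.35 to 0.13, Ramp1 -0.57 to 0.30, Ucp1 -1.44 to 1.01, Cidea -0.47 to 0.92, Pparg -0.059 to 0.31, Pdgfra -0.17 to 0.15 and Ptprc -1.17 to 1.31, as log2 fold changes. Ramp1 was -0.085 in limma-voom, -0.11 with the replicate block, -0.11 with the batch term and -0.49 in the lower series. Ucp1 was 0.021 and 1.26 in those last 2 settings, Ptprc -0.11 and -1.10, Dcn 0.045 in the lower series, and Pdgfra -0.055 with library totals. Without KI-HFD library 2 the fatty acid oxidation median was -0.02, the thermogenic median -0.31 and the oxidative phosphorylation median -0.11. The adrenergic, fibroblast, neuron, Schwann cell, class II, T cell, B cell and depot patterning medians also changed sign under some alternatives. Few counts in at least some libraries limit Calca, Ncam2, Tmem132b, Mmp13, Elovl3, Gsg1l, Fosb and Avil, among others.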

Other observations

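Nuclear receptor genes, which encode transcription factors for hormones and lipids, held 23 of 29 with a fold change above 0, 4 separated upward and 1 downward, with a median of 0.19. Thrb, the thyroid hormone receptor beta gene, was at 68.8, 69.0 and 50.3 CPM in KI-HFD, against 42.6, 49.7 and 29.1 CPM in WT-NC (log2 fold change 0.63, SE 0.22), without overlap. Esr1, the oestrogen receptor alpha gene, overlapped by 1 library at 76.4, 94.7 and 43.6 CPM in KI-HFD, against 34.1, 45.7 and 16.6 CPM in WT-NC. Of 29 Wnt genes there were 6 separated upward and 3 downward, with a median of 0.12, and -0.15 without KI-HFD library 1. Wnt5a, a ligand of the non-canonical branch, was lower at 38.8, 43.2 and 39.9 CPM in KI-HFD, against 55.6, 57.2 and 61.2 CPM in WT-NC (log2 fold change -0.51, SE 0.11), and Rspo1, which amplifies the canonical branch, was higher at 2.27, 1.39 and 1.56 CPM in KI-HFD, against 0.855, 0.590 and 0.753 CPM in WT-NC (log2 fold change 1.24, SE 0.39).

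Depot patterning factors, homeobox and related genes that differ between fat pads, held 2 separated upward and 4 downward of 24. Lhx8 was at 0.725, 3.67 and 3.68 CPM in KI-HFD, against 13.7, 11.9 and 7.62 CPM in WT-NC (log2 fold change -2.04, SE 0.58) and Irx3 at 3.33, 1.70 and 1.69 CPM in KI-HFD, against 5.86, 5.63 and 4.87 CPM in WT-NC (log2 fold change -1.28, SE 0.35), while En1 was higher at 2.71, 1.29 and 1.95 CPM in KI-HFD, against 0.692, 1.09 and 1.11 CPM in WT-NC (log2 fold change 1.04, SE 0.42). None of these genes passed the test across all genes. The cholesterol synthesis list had 18 of 23 genes below 0 and 0 separated upward and 3 downward, with a median of -0.19. Lss, the lanosterol synthase gene, was at 64.2, 44.5 and 46.5 CPM in KI-HFD, against 67.1, 74.3 and 93.3 CPM in WT-NC (log2 fold change -0.60, SE 0.19). Fosb, an immediate early transcription factor gene, was at 0.145, 0.310 and 0.0866 CPM in KI-HFD, against 1.26, 1.32 and 1.77 CPM in WT-NC (log2 fold change -2.99, SE 0.56), and Fos overlapped at 17.9, 8.52 and 25.02 CPM in KI-HFD, against 76.3, 14.8 and 37.8 CPM in WT-NC. All 8 erythroid genes were below 0, with a median of -1.12, and the globin gene Hbb-bs, at 42.5, 45.4 and 265 CPM in KI-HFD, against 209.9, 181 and 353 CPM in WT-NC, was high in KI-HFD library 3 and overlapped.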
